A study of Mus musculus with 8 samples.

Results

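CD4 T cells are helper and regulatory T lymphocytes that carry the co-receptor CD4 and recognise peptides on MHC class II. In single-cell libraries of dissociated mouse hearts they were selected on their own transcripts. A barcode was kept when it had 200 to 6000 genes, 500 to 30000 unique molecular identifiers (UMIs, counted RNA molecules) and a mitochondrial share under 15%. A kept cell was chosen by at least 2 UMIs of Cd3d, Cd3e and Cd3g together, at least 1 UMI of Cd4, 0 of Cd8a and Cd8b1, 0 of the B cell gene Cd79a and fewer than 5 of the macrophage genes C1qa, C1qb and C1qc. In all, 153 of 27053 kept cells met this rule. The levels of these 10 genes are therefore a description and not a result.

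The mice were wild-type male C57BL/6J animals operated at 8 weeks of age, either by a sham operation or by transverse aortic constriction (TAC), which narrows the aorta and puts the left ventricle under pressure. There was 1 single-cell library and 1 heart section for sham and for 2, 4 and 6 weeks after TAC (TAC-2w, TAC-4w, TAC-6w), while the number of hearts behind each library is not given in the sources used here. By the labels, the TAC-2w library belonged to batch 1, the TAC-4w library to batch 2, and the sham and TAC-6w libraries to batch 3. With 1 library per condition no test between conditions was possible, and for TAC-2w and TAC-4w the operation and the batch cannot be told apart in any contrast to sham. By the study's methods the hearts were dissociated into cells, whereas the protocol in the labels is one for nuclei. The filtered matrices held 10275 barcodes and 86671674 UMIs for sham, 7924 and 78587992 for TAC-2w, 8420 and 48278486 for TAC-4w, and 5854 and 28793316 for TAC-6w.

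A naive CD4 T cell leaves the thymus, recirculates through blood and lymph nodes with the homing receptor CCR7, and keeps the transcription factors TCF1 and LEF1. After antigen recognition it can take a helper program. Th1 cells use T-bet and interferon gamma, Th2 cells GATA3 and interleukin 4, Th17 cells interleukin 17, and follicular helper cells BCL6 and CXCR5. Regulatory T cells carry FOXP3 and restrain the other programs. In pressure-overloaded hearts, CD4 T cells are known as a population that accumulates as heart failure develops.

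The sham library held 24 CD4 T cells among 8228 kept cells, or 0.292% (95% Clopper-Pearson interval 0.187 to 0.434). TAC-2w held 21 of 6501 cells, or 0.323% (0.200 to 0.493). TAC-4w held 102 of 6747 cells, or 1.51% (1.23 to 1.83), and TAC-6w held 6 of 5577 cells, or 0.108% (0.0395 to 0.234). The TAC-4w interval lay above the other 3, and the sham and TAC-2w intervals overlapped. All intervals here cover counting error only, not the spread between hearts.

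The libraries also differed in what else they held. Cells gated as fibroblasts numbered 4579 in sham, 3257 in TAC-2w, 391 in TAC-4w and 2911 in TAC-6w. Among cells with a UMI of Ptprc, the gene of the leukocyte antigen CD45, CD4 T cells made up 0.935% in sham (0.600 to 1.39), 0.917% in TAC-2w (0.569 to 1.40), 2.12% in TAC-4w (1.73 to 2.56) and 0.470% in TAC-6w (0.173 to 1.02). Among leukocytes the TAC-4w share was thus still above the other intervals, by a smaller margin.

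CD8 T cells, the cytotoxic lineage, were gated by the mirrored rule, with at least 1 UMI of Cd8a or Cd8b1 and 0 of Cd4, and numbered 56 in sham, 57 in TAC-2w, 117 in TAC-4w and 20 in TAC-6w. CD4 T cells were 30.0% of the CD4 and CD8 T cells in sham (20.3 to 41.3), 26.9% in TAC-2w (17.5 to 38.2), 46.6% in TAC-4w (39.8 to 53.4) and 23.1% in TAC-6w (8.97 to 43.6). The TAC-4w interval touched that of sham and that of TAC-6w, and lay above that of TAC-2w. With cells thinned to 1000 UMIs before the gate, TAC-4w was no longer the highest. It was at 18.9% (11.6 to 28.3) and TAC-6w at 33.3% (4.33 to 77.7), the latter from 2 CD4 and 4 CD8 T cells.

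**Figure D1:**
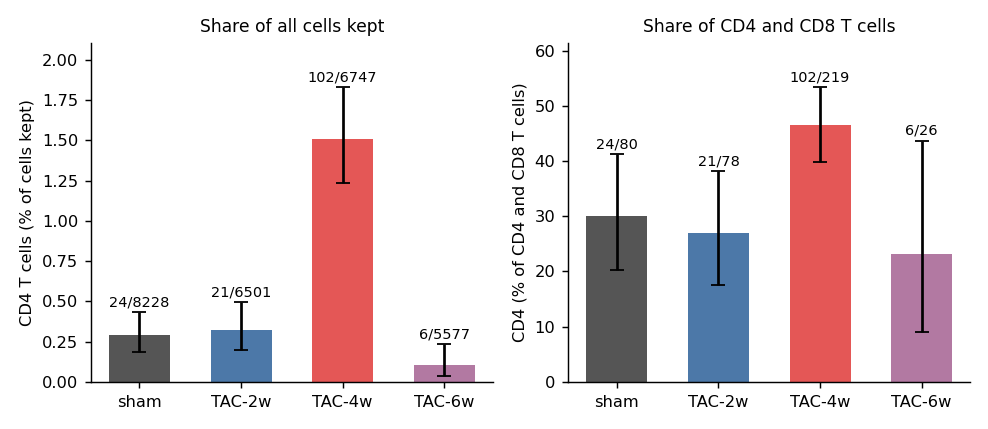
Bars give CD4 T cells as a percent of all kept cells (left) and of CD4 and CD8 T cells (right) in the 4 libraries, with 95% Clopper-Pearson intervals for counting error and the counts above them. TAC-4w is highest in both, at 1.51% and 46.6%, and TAC-6w rests on 6 cells. With cells thinned to 1000 UMIs before the gate, the share on the right was 18.9% at TAC-4w and 33.3% at TAC-6w.

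CD4 T cells were of similar depth in all libraries, with a median of 5181.5 UMIs in sham, 5310 in TAC-2w, 5742 in TAC-4w and 4726 in TAC-6w. Their summed UMIs were 165482, 133654, 635560 and 37273 in the same order, so that the TAC-4w values are the most precise and the TAC-6w values the least. Cd4 transcripts were few. The gate was met with a single Cd4 UMI in 14 of 24 cells in sham, 12 of 21 in TAC-2w, 57 of 102 in TAC-4w and 4 of 6 in TAC-6w. For the background of free RNA, 0.0655% of the fibroblast-gated cells of sham, 0.0921% of TAC-2w, 0% of TAC-4w and 0.0344% of TAC-6w had a Cd4 UMI, at medians of 10624, 12667, 13669 and 6256 UMIs. The TAC-4w value rests on 391 cells, with an upper limit of 0.939%. The fibroblast gate asks for 0 UMIs of the Cd3 genes and Ptprc, so these shares can understate the background. Conversely, 72 T cells of sham, 47 of TAC-2w, 136 of TAC-4w and 27 of TAC-6w had neither a Cd4 nor a Cd8 UMI and could belong to either lineage or to neither.

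Just inside the rule, 2 members of sham, 0 of TAC-2w, 5 of TAC-4w and 1 of TAC-6w had exactly 2 UMIs of the Cd3 genes. Just outside it, 0, 0, 2 and 2 cells in the same order failed only by having 1 such UMI. A further 0, 2, 14 and 1 cells failed only by a Cd79a UMI, and 0, 2, 2 and 0 only by their C1q UMIs. Libraries shared 120 barcodes among all barcodes of the filtered matrices. Of these, 1 was shared by sham and TAC-2w and belonged to a member in only 1 of the 2 libraries.

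Markers of the lineage that the rule did not use were present in each library. Icos, a co-stimulatory receptor of activated helper cells, had a UMI in 58.3% of the sham cells, 33.3% in TAC-2w, 41.2% in TAC-4w and 33.3% in TAC-6w, against at most 0.675% of fibroblast-gated cells in any library. Tnfrsf4, which encodes the survival receptor OX40, was found in 37.5%, 19.0%, 21.6% and 33.3% of the cells. In CD8 T cells of the same libraries Icos had a UMI in 28.6%, 26.3%, 24.8% and 15%, and Tnfrsf4 in 0%, 0%, 0.855% and 0%. Detection of Icos thus set the members apart from fibroblasts more than from CD8 T cells, whereas Tnfrsf4 was nearly absent from CD8 T cells. The label CD4 T cells was kept on the values of these genes. Cd3e, which entered the rule through the Cd3 sum and is given as a description, was found in 83.3%, 85.7%, 80.4% and 66.7%.

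Members were also checked for transcripts of other cell types. In sham, the fibroblast list of 8 genes summed to 3698 CPM (counts per 1000000 UMIs), with 192 of the 264 UMIs of the collagen-binding proteoglycan Dcn in 1 cell. At TAC-2w the list reached 8672 CPM, with 718 of 741 UMIs of the actin-severing gene Gsn in 1 cell. It was 70.8 CPM at TAC-4w. The TAC-6w value was 6519 CPM, where 116 of 116 Dcn UMIs were in 1 of the 6 cells. Haemoglobin transcripts behaved alike, with 1160 of 1716 Hbb-bs UMIs in 1 sham cell and 2377 of 2538 in 1 cell of TAC-4w. Single cells thus carried most of the foreign transcripts, and the naive list, the counts of genes past 2-fold at TAC-4w and the globin genes are given with and without the 11 members that had such UMIs, 4 in sham, 2 in TAC-2w, 4 in TAC-4w and 1 in TAC-6w.

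A second kind of foreign transcript was thin and widespread. The neutrophil genes S100a8 and S100a9 had a UMI in 50% and 67.6% of the CD4 T cells at TAC-4w, against 0% and 0% in sham, 0% and 4.76% at TAC-2w, and 0% and 0% at TAC-6w. The platelet gene Pf4 was found in 20.6% of the TAC-4w cells and in no cell of the other 3 libraries. The macrophage gene Lyz2 had 699 UMIs at TAC-4w, 591 of them in 1 cell. The antigen-presentation gene Cd74 had 771, with 714 in 1 other cell that also held 211 UMIs of H2-Aa. In contrast, the B cell gene Ms4a1 had 1 UMI at TAC-4w and 0 elsewhere, and the gamma-delta T cell list of 8 genes had 0 UMIs in sham, TAC-2w and TAC-6w and 13 at TAC-4w. The NK list of 7 genes had 2 and 1 UMIs in sham and TAC-2w, 0 at TAC-6w and 197 at TAC-4w, of which 108 were Tyrobp and 82 Fcer1g, genes shared with myeloid cells. The endothelial list of 8 genes was highest in sham at 272 CPM, and the cardiomyocyte list of 10 genes in sham at 266 CPM and at TAC-2w at 307 CPM. The part of these transcripts in the results was not tested beyond leaving out the 11 members.

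Genes of immature T cells were counted in every class of T cell, since the thymus lies beside the field of this operation. Rag1 and Rag2 rearrange the receptor genes, Dntt adds bases at the joints, and Ptcra encodes the pre-receptor chain. A UMI of these 4 genes was found in 0 of 24 CD4 T cells in sham, 0 of 21 in TAC-2w, 1 of 102 in TAC-4w and 0 of 6 in TAC-6w. Among T cells with both Cd4 and Cd8 UMIs, which the rule leaves out, they were found in 10 of 12 cells of sham, or 83.3% (51.6 to 97.9), 18 of 22 of TAC-2w, or 81.8% (59.7 to 94.8), and 39 of 45 of TAC-4w, or 86.7% (73.2 to 94.9). TAC-6w held 0 such cells. Among CD8 T cells they were found in 4 of 56, 16 of 57, 10 of 117 and 0 of 20. Transcripts of immature T cells were therefore concentrated in the cells with both co-receptors and present in a part of the CD8 gate, and nearly absent from the CD4 gate.

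The naive list of 15 genes summed to 2973 CPM in sham (exact Poisson 95% interval 2716 to 3248), 4369 in TAC-2w (4022 to 4739), 4742 in TAC-4w (4574 to 4915) and 1717 in TAC-6w (1322 to 2193). Against sham these were ratios of 1.47 (1.301 to 1.66), 1.60 (1.45 to 1.76) and 0.578 (0.438 to 0.751). Without its most abundant gene Klf2, which controls exit from lymphoid organs, the ratios were 1.53, 1.81 and 0.457. Without the members that carried foreign transcripts they were 1.17, 1.33 and 0.478. The direction at TAC-6w was lost when each cell was thinned to 1000 UMIs, with a ratio of 1.07 (0.669 to 1.65), and the mean over the 6 cells gave 0.993. The same thinning gave 1.07 (0.800 to 1.44) at TAC-2w, an interval that includes 1, and 1.32 (1.06 to 1.66) at TAC-4w.

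Among single naive genes, Il7r, the receptor chain for the survival cytokine interleukin 7, was at 496 CPM in sham, 509 in TAC-2w, 1037 in TAC-4w and 26.8 in TAC-6w. Only 1 of its UMIs was found at TAC-6w, in 1 of 6 cells, against 78.4% of the cells at TAC-4w and 66.7% in sham. Lef1, which with TCF1 keeps T cells in the naive state, was at 157, 389, 313 and 134 CPM in the same order. Tcf7, the gene of TCF1, was at 133, 337, 308 and 26.8 CPM. Both were highest at TAC-2w and TAC-4w.

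The homing receptor gene Ccr7 was at 103 CPM in sham, 172 at TAC-2w and 143 at TAC-4w. It had no UMI at TAC-6w, where the exact upper limit is 99.0 CPM. The interval of its ratio to sham reached 1.08, so that a difference was not detectable at this depth. S1pr1, the receptor for the lipid that draws T cells out of tissue, was at 127 CPM in sham, 97.3 in TAC-2w, 319 in TAC-4w and 161 in TAC-6w. Each of these genes had a UMI in at most 2.30% of fibroblast-gated cells, except S1pr1 with up to 6.39%, whereas Klf2 was in 83.3% to 92.4% of them and does not mark T cells.

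With 1 library a side, genes were compared with sham by the ratio of summed CPM, and a ratio past 2-fold was counted among 1208 genes with a mean of at least 100 CPM over the libraries. At TAC-2w 47 genes were higher (3.89% of the genes) and 98 lower (8.11%). At TAC-4w 49 were higher (4.06%) and 109 lower (9.02%), of which the lower count fell to 49 without the members that carried foreign transcripts and to 68 without likely doublets. At TAC-6w 122 were higher (10.1%) and 219 lower (18.1%), where the summed UMIs were fewest. The median ratio of all genes was 0.983, 0.944 and 0.987. Of the 15 naive genes, 11 passed this floor, which sham and the TAC libraries set together.

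Of all 1208 genes, 3.89% were past 2-fold higher and 8.11% lower at TAC-2w. These shares were 4.06% and 9.02% at TAC-4w, and 10.1% and 18.1% at TAC-6w. At TAC-4w 5 of the 11 naive genes were past 2-fold higher and 0 lower, with a median ratio of 1.99. Among these were S1pr1 (2.52, interval 1.60 to 4.15), Gm8369 (2.45, 1.64 to 3.79), Tcf7 (2.32, 1.49 to 3.79) and Il7r (2.09, 1.66 to 2.67). At TAC-2w 3 were higher and 0 lower, with a median of 1.59, and they were Gm8369 (2.75, 1.72 to 4.51), Tcf7 (2.53, 1.49 to 4.43) and Lef1 (2.48, 1.52 to 4.13). At TAC-6w 0 were higher and 6 lower, with a median of 0.370, among them Ccr7 and Igfbp4 without a UMI, Il7r at 0.0541 (0.00135 to 0.310), Tcf7 at 0.202 (0.00489 to 1.25) and Satb1 at 0.370 (0.0729 to 1.17). The 3 comparisons share the sham library, and of the 6 genes the intervals of Il7r and Igfbp4 lay below 1. Igfbp4 was also found in 92.9% to 98.0% of fibroblast-gated cells, and 45 of its 51 UMIs at TAC-2w were in 1 cell.

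Naive genes were also counted cell by cell, with a set of 3 genes that was chosen after values were seen. In sham 11 of 24 cells had UMIs of at least 2 of Ccr7, Lef1 and Tcf7, or 45.8% (25.6 to 67.2). TAC-2w had 8 of 21, or 38.1% (18.1 to 61.6), TAC-4w 63 of 102, or 61.8% (51.6 to 71.2), and TAC-6w 1 of 6, or 16.7% (0.421 to 64.1). The 4 intervals overlapped. S100a4, a calcium-binding gene of memory T cells, had a UMI in 15, 12, 50 and 4 cells. Both features were met together in 5, 2, 21 and 0 cells. S100a4 was also found in 35.4% to 47.1% of fibroblast-gated cells, so that its UMIs alone do not mark a T cell.

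At TAC-4w, where both kinds were numerous, Cxcr6, a chemokine receptor of tissue-resident T cells, was at 319 CPM (253 to 397) in the 39 cells with fewer than 2 of the 3 genes and at 46.7 CPM (27.7 to 73.9) in the 63 cells with at least 2. Igfbp4, an insulin-like growth factor binding protein of naive T cells, was reversed, with 4 and 104 UMIs. Ccl5, a chemokine of effector T cells, was at 3142 CPM (2926 to 3369) in the former and 403 CPM (342 to 471) in the latter. The Th1 chemokine receptor Cxcr3 was at 267 and 88.3 CPM. Maf, a transcription factor of helper cells, was at 543 and 242 CPM, and Il7r at 723 and 1241 CPM. The 2 kinds of cell had medians of 5880 and 5705 UMIs, so that depth was alike. These cells were grouped by genes of the naive list, and the values describe the cells of 1 library. Some orders were the opposite in other libraries. In sham Cxcr6 was at 45.7 CPM (12.4 to 116.9) in the 13 cells with fewer than 2 of the genes and at 115.6 CPM (52.8 to 219) in the other 11, with intervals that overlap. At TAC-2w Igfbp4 was at 511 CPM in the 13 cells with fewer than 2 and at 114.5 CPM in the other 8, with most of its UMIs in 1 cell.

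The activation and memory list of 18 genes was at 8986 CPM in sham (8535 to 9454), 9308 in TAC-2w (8798 to 9840), 8498 in TAC-4w (8273 to 8728) and 12905 in TAC-6w (11777 to 14111). Its ratios to sham were 1.04 (0.960 to 1.12), 0.946 (0.893 to 1.00) and 1.44 (1.29 to 1.59), and 309 of the 481 UMIs at TAC-6w were in 1 cell. The TAC-6w ratio was 0.991 (0.718 to 1.35) after thinning to 1000 UMIs and 1.08 as a mean over cells, and the TAC-4w ratio was 1.68 (1.53 to 1.84) with at least 2 Cd4 UMIs. Of its genes, Maf was at 115 CPM in sham, 329 in TAC-2w, 360 in TAC-4w and 161 in TAC-6w. Itgb1, the beta chain of collagen-binding integrins, was at 218, 479, 677 and 242 CPM. Both were past 2-fold higher than sham at TAC-2w and at TAC-4w. Odc1, the rate-limiting enzyme of polyamine synthesis, was at 266, 120, 61.4 and 429 CPM. Cd44, the adhesion receptor that marks experienced T cells, had a UMI in 37.5%, 23.8%, 45.1% and 50% of the cells.

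**Figure D2:**
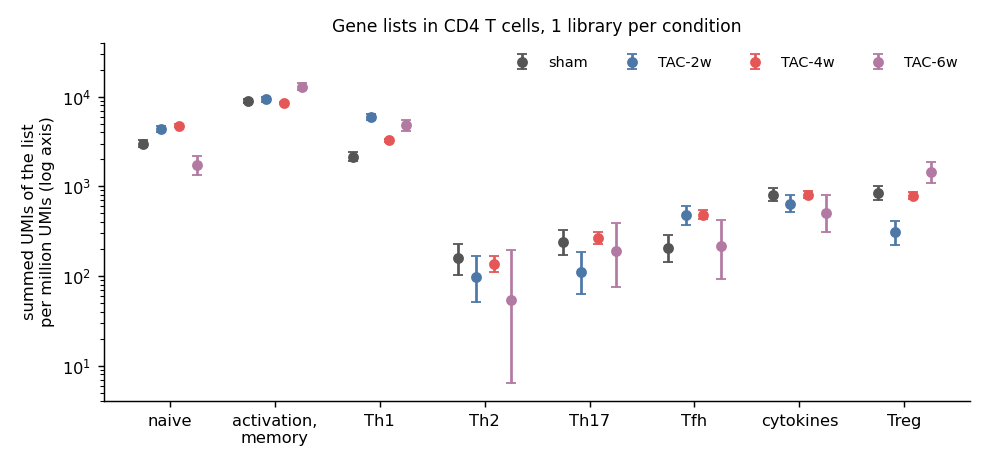
Points give the summed UMIs of each gene list of the CD4 T cells in CPM, on a log axis, with exact Poisson 95% intervals for counting error. The naive list is at 4369 and 4742 CPM at TAC-2w and TAC-4w against 2973 in sham and 1717 at TAC-6w, and the Th2, Th17 and Tfh lists lie below 500 CPM in all libraries.

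Of the helper programs, the Th1 list was the most abundant, at 2151 CPM in sham (1934 to 2387), 5933 in TAC-2w (5527 to 6361), 3262 in TAC-4w (3123 to 3405) and 4802 in TAC-6w (4125 to 5560). The chemokine gene Ccl5 made up most of the difference. It was at 810 CPM in sham, 4250 in TAC-2w, 1482 in TAC-4w and 3300 in TAC-6w, and at TAC-6w 113 of its 123 UMIs were in 1 cell. Without Ccl5 the list was at 1342, 1683, 1780 and 1502 CPM, with ratios to sham of 1.25 (1.04 to 1.52), 1.33 (1.148 to 1.54) and 1.12 (0.820 to 1.51). With Ccl5 and without the members that carried foreign transcripts, the list was at a ratio of 2.53, 1.16 and 2.201. Over all members the TAC-4w ratio was 1.52 (1.35 to 1.70), which became 3.35 (2.77 to 4.09) with at least 2 Cd4 UMIs and 1.149 (0.873 to 1.53) after thinning. The TAC-2w ratio went from 2.76 (2.43 to 3.13) to 4.45 (3.77 to 5.27) with a mitochondrial share under 5%. The TAC-6w ratio went from 2.23 (1.85 to 2.68) to 3.401 (2.32 to 4.97) after thinning. Tbx21, the gene of T-bet, had 8, 4, 10 and 1 UMIs. Ifng, the gene of interferon gamma, had 8, 11, 43 and 7 UMIs in 16.7%, 19.0%, 16.7% and 33.3% of the cells, so that its share of cells was similar in sham, TAC-2w and TAC-4w. Cxcr3 was at 90.6, 120, 159 and 80.5 CPM.

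Of the Th2 cytokine genes, Il4 and Il5 had 0 UMIs in all 153 cells and Il13 had 1, in sham. Gata3, which also acts in the CD4 lineage at large, was found in 37.5%, 33.3%, 36.3% and 16.7% of the cells and made up 18 of 26, 10 of 13, 60 of 87 and 2 of 2 UMIs of the Th2 list. Il1rl1, the interleukin 33 receptor, had 6 UMIs in sham, 0 in TAC-2w, 4 in TAC-4w and 0 in TAC-6w. Ccr4, a chemokine receptor of Th2 and regulatory cells, had 16 UMIs in 9.80% of the TAC-4w cells and 0 in the other libraries.

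Of the Th17 genes, Il17f had 0 UMIs. All 22 Il22 UMIs and all 6 Il17a UMIs of the CD4 T cells were in the same TAC-4w cell, which had 6994 UMIs in all, 4 UMIs of the Th17 chemokine receptor Ccr6. Ccr6 had 15 UMIs in 6.86% of the TAC-4w cells and 0 in the other libraries, where the floor of 3 UMIs lies between 18.1 and 80.5 CPM. Rora made up 38 of the 40 UMIs of the list in sham, and was found in 69.5% of the sham fibroblast-gated cells.

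Of the follicular helper genes, Slamf6, a homotypic receptor that signals through the adaptor SAP, was among the largest ratios to sham at TAC-2w and TAC-4w. It had 4 UMIs in 3 of 24 sham cells, 34 UMIs in 13 of 21 cells in TAC-2w, 178 UMIs in 64 of 102 cells in TAC-4w and 4 UMIs in TAC-6w. The ratio to sham was 10.5 in TAC-2w (3.75 to 40.8), 11.6 in TAC-4w (4.45 to 43.0) and 4.44 in TAC-6w (0.827 to 23.8), with at most 9 UMIs in any cell. Sh2d1a, the gene of that adaptor, was at 36.3 CPM in sham, 172 in TAC-2w, 120 in TAC-4w and 80.5 in TAC-6w, a ratio of 4.75 (1.88 to 14.2), 3.298 (1.45 to 9.27) and 2.22 (0.359 to 10.4). The defining genes were few, with 0 UMIs of Cxcr5 in all libraries, 9 of Bcl6 and 6 of Il21. Slamf6 and Sh2d1a are expressed widely in T cells, and the list was carried by them and by Tox. In CD8 T cells Slamf6 was at 41.1 CPM in sham, 69.1 in TAC-2w, 163 in TAC-4w and 116 in TAC-6w. It was thus higher than in sham there too, by smaller ratios at TAC-2w and TAC-4w. Sh2d1a was at 133, 163, 145 and 29.1 CPM in the CD8 T cells, in the same order.

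Among cytokine genes, Ltb, which encodes lymphotoxin beta, was found in 83.3%, 76.2%, 76.5% and 83.3% of the cells at 435, 486, 453 and 295 CPM. Il2 had 3, 1, 7 and 0 UMIs. Tnf was at 130.6 CPM at TAC-4w, in 23.5% of the cells, against 36.3 CPM in sham, 7.48 at TAC-2w and 26.8 at TAC-6w. Csf2, the gene of GM-CSF, had 9 UMIs in 1 sham cell and 0 elsewhere. Il10 had 13 UMIs in 1 cell of TAC-4w, 4 in 1 cell of TAC-6w and 1 in sham.

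Regulatory genes were summed over 15 genes at 846 CPM in sham (712 to 998), 307 in TAC-2w (220 to 416), 790 in TAC-4w (722 to 862) and 1449 in TAC-6w (1088 to 1890). The TAC-2w interval lay below the other 3. In sham 60 of the 140 UMIs came from 1 cell, and at TAC-6w 29 of 54. At TAC-2w 3 of the 4 regulatory genes above the floor were past 2-fold lower, against 8.11% of all genes. They were Ctla4, an inhibitory receptor (ratio 0.0825, interval 0.00956 to 0.325), Ikzf2, the transcription factor Helios (0.213, 0.0645 to 0.558), and Capg, an actin-capping gene (0.427, 0.186 to 0.901). Tnfrsf18, the receptor GITR, was at 0.708 (0.317 to 1.51). The 1 sham cell with a Foxp3 UMI held 21 of the 30 Ctla4 and 10 of the 29 Ikzf2 UMIs of sham. At TAC-4w 0 of the 4 were past 2-fold in either direction, beside 4.06% higher and 9.02% lower of all genes. At TAC-6w 0 were lower and 1 was higher, beside 18.1% and 10.1% of all genes. The higher gene was Capg at 2.60 (1.34 to 4.90), and the list was at a ratio of 1.71 (1.23 to 2.36). That ratio was 1.48 (0.991 to 2.16) without Capg, 0.913 (0.269 to 2.49) after thinning to 1000 UMIs and 5.00 (3.18 to 7.88) with at least 2 Cd4 UMIs. With that gate the list was at 0.652 (0.368 to 1.13) at TAC-2w, and at TAC-4w it turned from 0.934 (0.773 to 1.13) to 2.06 (1.47 to 2.95). With a mitochondrial share under 5% the TAC-4w ratio was 1.54 (1.13 to 2.15).

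A Foxp3 UMI was found in 5 of the 153 cells, which held 2 to 4 each, so that the shares count cells with a UMI and not cells that express the gene. Sham had 1 of 24, or 4.17% (0.105 to 21.1), TAC-2w 0 of 21, which allows a share of cells with a UMI of up to 16.1%, TAC-4w 3 of 102, or 2.94% (0.611 to 8.36), and TAC-6w 1 of 6. No Foxp3 UMI was found in 56, 57, 117 and 20 CD8 T cells or in any fibroblast-gated cell. With so few cells, Foxp3 positive and negative cells could not be compared by a test.

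The 5 cells held other regulatory genes. The sham cell had 4 UMIs of Foxp3, 21 of Ctla4, 13 of Tnfrsf18, 26 of Tnfrsf4, 10 of Ikzf2 and 3 of Il2ra, the high-affinity interleukin 2 receptor chain. It thus held 26 of the 47 Tnfrsf4 UMIs of its library. The TAC-4w cells had 4, 2 and 3 UMIs of Foxp3 and 3, 11 and 7 of Ikzf2. The TAC-6w cell had 3 of Foxp3, 7 of Ikzf2, 5 of Ctla4 and 4 of Il10, which were all Il10 UMIs of its library. Each of the 5 cells had Ikzf2 and Ctla4, and Ccr7 was found in 2 of the TAC-4w cells.

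**Figure D3:**
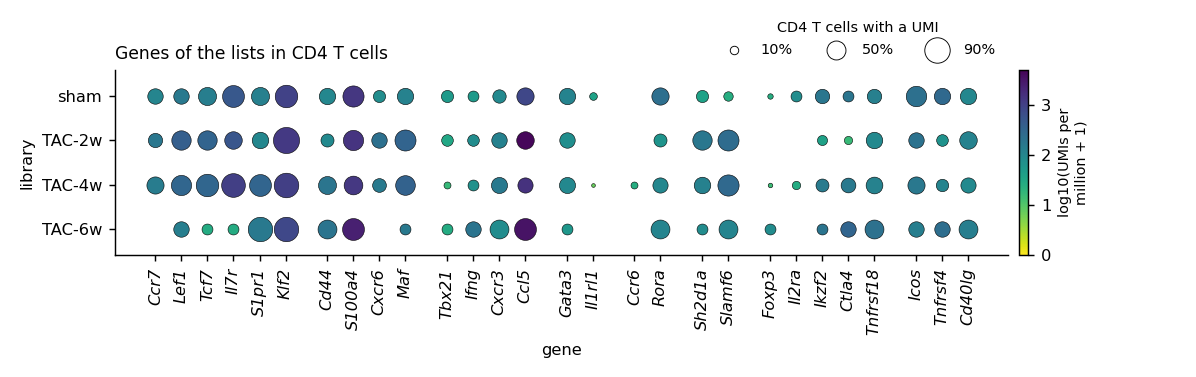
Each dot is 1 gene in the CD4 T cells of 1 library, with the area giving the percent of cells with a UMI and the colour the log10 of CPM plus 1. Ccr7 has no dot at TAC-6w, Slamf6 is in 12.5% of sham cells and 62.7% of TAC-4w cells, and Foxp3 is in 4.17% or fewer of the cells of sham, TAC-2w and TAC-4w.

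Because CD4 and CD8 T cells of the same library share its depth, batch and operation, they could be compared over the 4 libraries. UMIs were summed per library and class and tested with edgeR's quasi-likelihood test with the library as a block. Of 4597 genes tested, leaving out the 10 genes of the rule, 20 were higher in CD4 T cells (0.435% of the genes) and 32 lower (0.696%) at a Benjamini-Hochberg adjusted p under 0.05, and 315 had an unadjusted p under 0.05. The median log2 fold change of all genes was 0.012. The libraries come from 4 different conditions, so the spread in this test includes that between operations. Without the TAC-4w library 4 genes were higher and 12 lower, without the sham library 13 and 23, and without the TAC-6w library 32 and 43. Without the block 4 were higher and 5 lower.

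Among the genes higher in CD4 T cells were co-stimulatory genes of helper cells. Tnfrsf4 had 47, 9, 68 and 9 UMIs in the CD4 T cells of sham and of the libraries at 2, 4 and 6 weeks, and 0, 0, 1 and 0 in the CD8 T cells. Its log2 fold change was 7.20 ± 0.53 (SE, edgeR adjusted p = 8.351e-06). Over all libraries the ratio was 222 (39.2 to 8848), since it rests on 1 UMI in CD8 T cells. Cd40lg, the ligand by which helper cells activate B cells and macrophages through CD40, had 16, 15, 58 and 5 UMIs in CD4 T cells and 1, 0, 2 and 0 in CD8 T cells, a log2 fold change of 5.52 ± 0.53 (edgeR adjusted p = 7.202e-05). In each library both genes were higher in CD4 T cells.

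Maf was at 115, 329, 360 and 161 CPM in CD4 T cells and averaged 31.4 CPM in CD8 T cells, with a log2 fold change of 3.01 ± 0.29 (edgeR adjusted p = 7.202e-05). Icos was higher by 1.51 ± 0.24 on the log2 scale (edgeR adjusted p = 0.005923) and Tnfrsf18 by 1.92 ± 0.29 (edgeR adjusted p = 0.003726). Izumo1r, the folate receptor 4 of regulatory and anergic cells, had 43 UMIs in CD4 and 8 in CD8 T cells (log2 3.09 ± 0.65, edgeR adjusted p = 0.03365), and it did not pass in 3 of 9 alternatives, with adjusted p from 0.0001559 to 0.1438 over the 9. All 4 genes were higher in CD4 T cells in each of the 4 libraries. Also among the 20 were Il6ra, the interleukin 6 receptor (1.88 ± 0.31), Slamf1 (1.82 ± 0.32), the argininosuccinate synthase Ass1 (2.40 ± 0.42), the lipid phosphatase Inpp4b (1.59 ± 0.31) and Orai1, the pore of the store-operated calcium channel (1.24 ± 0.28), of which all but Ass1 were picked for mention after their values were seen. Ass1 did not pass without the TAC-4w library (log2 1.86, edgeR adjusted p = 0.9994), without the replicate block (0.07651) or with a mitochondrial share under 5% (0.4097). Of the CD4 lineage list, 4 of 7 tested genes were higher and 0 lower, beside 0.435% and 0.696% of all tested genes. The median log2 fold change of that list was 1.89.

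Globin genes were among the 20 as well. Hba-a1, Hba-a2, Hbb-bs and Hbb-bt were higher by 3.06 to 3.58 on the log2 scale, each with most of its UMIs in 1 sham cell and 1 TAC-4w cell. Without the members that carried foreign transcripts, the log2 fold changes were 0.18 to 0.89 with edgeR adjusted p from 0.574 to 0.966. Meg3, a long non-coding RNA that fibroblasts express, had 54 UMIs in sham CD4 T cells, of which 50 were in 1 cell.

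Among the 32 genes lower in CD4 T cells were genes of cytotoxic cells. Of 13 tested genes of the CD8 and cytotoxic list, 9 were lower and 0 higher, beside 0.696% and 0.435% of all tested genes. The median log2 fold change of that list was -3.00. Gzma, the serine protease granzyme A, had 7, 3, 10 and 1 UMIs in CD4 T cells and 690, 103, 680 and 12 in CD8 T cells (log2 -5.12 ± 0.40, edgeR adjusted p = 9.721e-06). Gzmm, granzyme M, had 1 UMI in CD4 and 98 in CD8 T cells. Eomes, the T-box factor of memory CD8 T cells, had 1 and 49. Without the TAC-2w library Eomes did not pass (edgeR adjusted p = 0.05734), at a log2 fold change of -4.64 against -4.66 with all libraries. The NK receptor genes Klrc2 and Klre1 had 3 and 2 UMIs against 89 and 131, and Cd160 had 2 against 76. With a mitochondrial share under 5%, Gzmm and Klre1 did not pass (edgeR adjusted p = 0.1245 and 0.05687). Their log2 fold changes were then -6.81 and -4.76, against -5.62 and -5.16 in the main test. Ccl5 averaged 2460 CPM in CD4 and 11706 CPM in CD8 T cells (log2 -2.55 ± 0.46, edgeR adjusted p = 0.01321), and Ifng 96.5 and 207 CPM (log2 -1.32 ± 0.29, edgeR adjusted p = 0.04415).

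Genes of immature T cells were also among the 32, with 2 of 5 tested genes of the thymocyte list, beside 0.696% of all tested genes. Dntt had 0 UMIs in CD4 T cells of all libraries and 28, 67, 50 and 0 in CD8 T cells, which is at least 28.9-fold lower in CD4 T cells with a floor of 3 UMIs over the group. Arpp21 and Endou, 2 genes known from thymocytes, had 3 and 2 UMIs against 152 and 78. Dntt and Arpp21 did not pass with DESeq2 (adjusted p = 0.9991 and 0.2566) or with a mitochondrial share under 5% (edgeR adjusted p = 0.08751 and 0.1177), nor Endou with DESeq2 (adjusted p = 0.1882). With all cells with a UMI of Rag1, Rag2, Dntt or Ptcra left out of both classes, 14 genes were higher and 25 lower, of which 14 and 24 were among the 20 and 32. Of 14 tested naive genes 0 passed the edgeR test in either direction, beside 0.435% and 0.696% of all genes, with a median log2 fold change of 0.28. In simulated counts without differences between libraries the test found 27.6% of genes changed 2-fold, so that a difference of that size could be missed. Ccr7 averaged 104 CPM in CD4 and 121 CPM in CD8 T cells. The naive list of CD8 T cells was at 2716 CPM in sham, 3758 in TAC-2w, 4180 in TAC-4w and 3229 in TAC-6w.

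**Figure D4:**
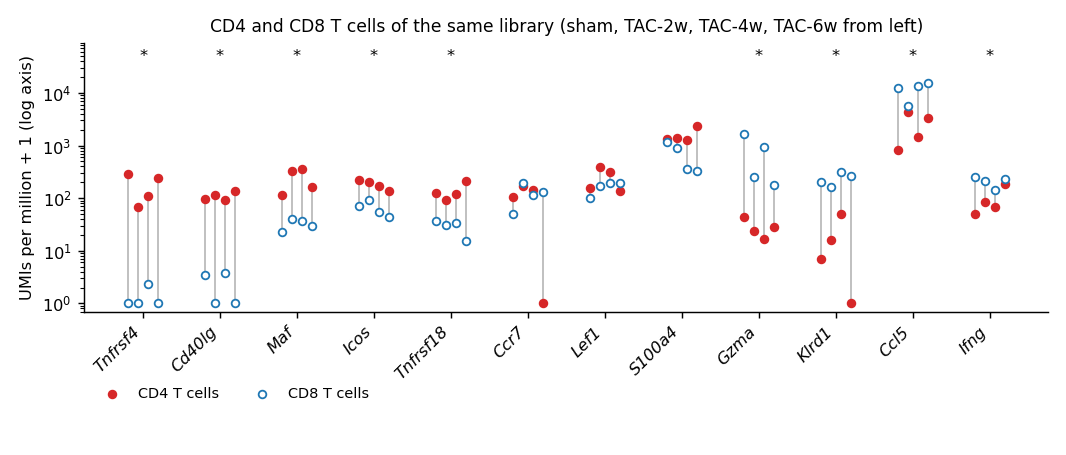
Each pair of joined points gives 1 gene in the CD4 (filled) and CD8 (open) T cells of 1 library as CPM plus 1 on a log axis, with the 4 libraries from left to right and a star over genes that passed the edgeR test. Tnfrsf4 and Cd40lg are higher and Gzma and Klrd1 lower in CD4 T cells in each library, and Ccr7 and Lef1 cross.

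Promoters are shown for 1 gene that was higher and 2 that were lower in CD4 T cells, to set the sequence beside the contrast. They are the 250 bases before the RefSeq start site in GRCm38.p6, read 5′ to 3′ on the strand of the gene, with capitals marking TGTGGT or its reverse complement ACCACA, a core that RUNX factors recognise. Its last letters GT can also begin GTTTCC, the reverse complement of GGAAAC, another motif that was counted.
Tnfrsf4 (chr4:156013445-156013694, plus strand): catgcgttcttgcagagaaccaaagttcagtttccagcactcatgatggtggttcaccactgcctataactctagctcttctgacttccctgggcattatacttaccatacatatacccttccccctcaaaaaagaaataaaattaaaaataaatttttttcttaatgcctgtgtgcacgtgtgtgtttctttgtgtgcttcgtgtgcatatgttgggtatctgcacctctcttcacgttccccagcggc
Gzma (chr13:113100982-113101231, minus strand): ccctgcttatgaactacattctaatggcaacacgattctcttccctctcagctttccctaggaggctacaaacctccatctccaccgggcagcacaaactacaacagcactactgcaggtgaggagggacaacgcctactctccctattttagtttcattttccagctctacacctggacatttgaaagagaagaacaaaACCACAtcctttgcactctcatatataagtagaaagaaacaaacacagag
Cd160 (chr3:96829352-96829601, minus strand): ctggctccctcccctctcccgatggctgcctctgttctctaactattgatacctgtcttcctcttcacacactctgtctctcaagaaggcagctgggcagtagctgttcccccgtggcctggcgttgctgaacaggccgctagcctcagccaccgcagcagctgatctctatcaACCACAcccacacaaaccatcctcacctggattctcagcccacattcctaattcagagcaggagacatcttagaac
The capitals lie 50 bases before the start in Gzma and 76 bases before it in Cd160, and Tnfrsf4 has none. The Cd160 start shown is 1 of 2 in the table. Of the 32 genes lower in CD4 T cells, 24 had a promoter in the RefSeq table, and 12 of these (50%) held TGTGGT on either strand. Of the 20 genes higher in CD4 T cells, 2 of 17 (11.8%) did, against 13.5% of 3672 tested genes and 15.9% of all 27025 genes with a promoter. Genes could have several promoters. Counted by promoter, the motif was in 17 of 39 (43.6%) of the lower genes and 2 of 19 (10.5%) of the higher ones. It was in 11.4% of 4710 promoters of tested genes and 14.0% of all 32851 promoters of this length. Of 9 motifs counted, the other 8 differed between the lower genes and the tested genes by -49.3 to 11.8 percentage points, against 36.5 for TGTGGT. The lowest was GGGCGG, in 16.7% of the lower genes and 65.9% of the tested ones. Runx3, the RUNX factor of the CD8 lineage, averaged 92.7 CPM in CD4 and 145 CPM in CD8 T cells (log2 -0.86 ± 0.28, edgeR adjusted p = 0.3087). These matches are letters in a window and describe no binding.

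Several genes at the ends of the comparisons with sham had most of their UMIs in 1 cell. At TAC-2w the largest ratios were those of Mgp (16.7), Apoe (11.4), Slamf6 (10.5), Serpinf1 (5.57) and Ccl5 (5.25). A single cell held 747 of 757 Mgp UMIs and 277 of 303 Apoe UMIs, whereas the Ccl5 UMIs came from 9 cells with at most 171 in 1. The smallest were those of the globins Hbb-bs, Hba-a1 and Hba-a2, of Hist1h2ae and of Pclaf, a replication gene with 29 of its 38 sham UMIs in 1 cell.

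At TAC-4w the largest were H2-Eb1 (22.1), Lyz2 (20.2), Slamf6 (11.6), Cd74 (11.2) and H2-Ab1 (9.94), with 237 of 255 H2-Eb1 and 221 of 229 H2-Ab1 UMIs in 1 cell. At the low end 10 genes had no UMI at TAC-4w and tied at a ratio of 0, of which the stromal genes Meg3, Fbln2, Fstl1, Col1a2 and Htra3 had the most UMIs in sham. At TAC-6w Crispld2, Nupr1, Hist1h2ap and Mmp2 were among the 5 largest, each in 1 cell, and of 17 genes that tied without a UMI, Hba-a1, Meg3, Igfbp4, Kmt2a and Stk38 had the most in sham.

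Of the cycling genes, Mki67, a protein of dividing cells, had 18 UMIs in sham, 13 of them in 1 cell, 1 at TAC-2w, 80 at TAC-4w, of which 57 were in 1 cell, and 5 in 1 cell of TAC-6w. Genes of the interferon response were led by Ifi27l2a, at 2393, 3195, 1594 and 1529 CPM in the 4 libraries, a ratio to sham of 1.34 (1.16 to 1.53), 0.666 (0.592 to 0.750) and 0.639 (0.475 to 0.845). Of the 642 UMIs of the interferon list of 12 genes at TAC-2w, 229 were in 1 cell, against 74 of 618 in sham.

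The heart sections gave a second view at much lower depth per cell. A spot covers a small region with several cells, so its UMIs do not belong to 1 cell type, and fewer cells of a type and less RNA per cell cannot be told apart. The sections held 25996378 UMIs in sham, 48754396 in TAC-2w, 31942372 in TAC-4w and 48288659 in TAC-6w. Cd3d, Cd3e and Cd3g together had 21 UMIs in 1676 spots of sham, or 0.808 CPM (0.500 to 1.23), 19 at TAC-2w, or 0.390 (0.235 to 0.609), 104 at TAC-4w, or 3.26 (2.66 to 3.95), and 255 at TAC-6w, or 5.28 (4.65 to 5.97). Cd4 had 10, 13, 24 and 39 UMIs, or 0.385, 0.267, 0.751 and 0.808 CPM, with ratios to sham of 0.693 (0.281 to 1.77), 1.95 (0.900 to 4.58) and 2.10 (1.03 to 4.72). The last was 1.82 when mitochondrial and rRNA-like features were not counted in the total, with an interval of 0.893 to 4.09 that includes 1. Foxp3 had 1, 0, 0 and 1 UMIs. Spots with both a Cd3 and a Cd4 UMI numbered 1, 0, 5 and 5.

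**Figure D5:**
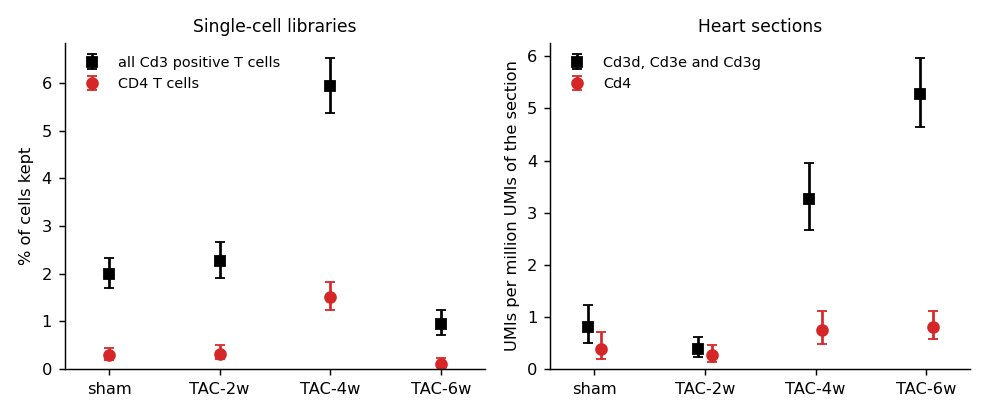
Points give all T cells and CD4 T cells as a percent of kept cells in the single-cell libraries (left) and Cd3 and Cd4 UMIs in CPM in the heart sections (right), with 95% intervals for counting error. T cells are highest at TAC-4w in the libraries (5.93%) and Cd3 UMIs are highest at TAC-6w in the sections (5.28 CPM).

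The libraries and the sections differed at 6 weeks. T cells of all kinds were 1.99% of kept cells in sham, 2.26% in TAC-2w, 5.93% in TAC-4w and 0.950% in TAC-6w, while the Cd3 level of the TAC-6w section was 6.54 times that of sham (4.19 to 10.7). By the labels the sham section shared a batch with the TAC-2w section, not with TAC-4w or TAC-6w, so that section differences at 4 and 6 weeks cannot be told apart from batch.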

How the data were processed

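Single-cell and Visium counts were deposited by the authors as filtered matrices of UMI counts per gene, with 32285 genes. The submitters' processing notes name Cell Ranger 7.0.0, Space Ranger 1.3.1 and the mouse build mm10, while the file headers name cellranger 6.0.0 and spaceranger 1.2.0. The cell filters, the rule for members and the depth of each library are given in the report. Members and gene lists were chosen with earlier results of these data known. UMIs were summed per library and class of cell, given as CPM with exact Poisson intervals, as shares with Clopper-Pearson intervals or as ratios with exact conditional intervals, all at 95%. The lower limit of detection was 3 UMIs. A fibroblast-gated cell had at least 10 UMIs of Col1a1, Col3a1 and Dcn and 0 of the Cd3 genes and Ptprc. Members with foreign transcripts had at least 5 UMIs of Col1a1, Col1a2, Col3a1 and Dcn, 5 of Lyz2, Csf1r and Tyrobp, or 20 of Hba-a1, Hba-a2, Hbb-bs and Hbb-bt, a choice made after seeing the data. Doublets were kept, and an alternative removed the 3.2% of cells with the highest Scrublet scores.

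CD4 and CD8 T cells were compared with edgeR 4.0.16 in R 4.3.3 (TMM, filterByExpr, quasi-likelihood test, Benjamini-Hochberg adjustment). The library was a block because both classes come from the same library. On simulated counts for this comparison, with 4467 genes tested, 27.6% of 2-fold and 99.0% of 4-fold changes were recovered. The simulation gave every library the same expression profile and every gene the common dispersion. It held no differences between operations or batches, so these shares need not hold for the data. Alternatives used DESeq2 1.42.0, other filters and left-out libraries. Genes named at the ends of the comparisons were the 5 largest and 5 smallest ratios per TAC library and the 10 largest changes in each direction between CD4 and CD8 T cells. Other genes came from 26 lists. Python 3.11.15, scanpy 1.11.5 and scipy 1.17.1 were used. Promoters came from RefSeq (GRCm38.p6), and not all genes had one. Some genes of the lists are not reported here by name.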

Additional observations from a re-analysis of the deposited data

How the results depend on the processing

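TAC-4w had the highest share of CD4 T cells among kept cells in 10 of 10 settings, with a ratio to sham of 5.18 to 7.53. With at least 2 Cd4 UMIs the share of kept cells was 0.122% in sham, 0.138% at 2 weeks, 0.667% at 4 weeks and 0.0359% at 6 weeks. The share among CD4 and CD8 T cells was then 15.2% in sham, 13.6% at 2 weeks, 27.8% at 4 weeks and 9.09% at 6 weeks. With cells thinned to 1000 UMIs before gating the shares of kept cells were 0.0374%, 0.0317%, 0.282% and 0.0374%. Those among CD4 and CD8 T cells were 10%, 5.71%, 18.9% and 33.3%. TAC-4w was thus not the highest there, while the TAC-6w value had an interval of 4.33 to 77.7 from 2 CD4 and 4 CD8 T cells. With the C1q genes at 0 the TAC-2w share was 0.138%.

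For the gene lists, ratios to sham follow in the order of weeks 2, 4 and 6. With at least 2 Cd4 UMIs the activation list was at 1.32, 1.68 and 3.203, the regulatory list at 0.652, 2.06 and 5.00, and the naive list at 1.23 in TAC-4w and 0.111 in TAC-6w. With this gate the Th17 list turned from 0.464 to 1.35 (0.579 to 3.19) for TAC-2w, and the Th2 list went from 0.619 to 4.24 (1.12 to 23.7) for TAC-2w and from 0.871 to 4.41 (1.42 to 22.2) for TAC-4w. After thinning to 1000 UMIs the Th2 list was at 5.19 (0.842 to 213.6) for TAC-4w, the naive list was at 1.07, 1.32 and 1.07, the activation list at 0.888 for TAC-4w and 0.991 for TAC-6w, and the regulatory list at 0.913 for TAC-6w, so that the naive, activation and regulatory lists turned at 6 weeks. As a mean over cells the naive list was at 1.21, 1.44 and 0.993, and the activation list at 0.868 for TAC-4w and 1.08 for TAC-6w. With a mitochondrial share under 5% the naive list was at 1.83 and 1.43, the activation list at 0.799 for TAC-2w, and the regulatory list at 1.54 for TAC-4w and 2.86 for TAC-6w. Without members that carried foreign transcripts the naive list was at 1.17 and 1.33, and the activation list at 0.830 for TAC-4w. Without likely doublets the activation list was at 1.81 for TAC-6w. The Th1 list, at 2.76, 1.52 and 2.23 over all members, was at 3.52, 3.35 and 1.73 with at least 2 Cd4 UMIs, at 1.149 for TAC-4w and 3.401 for TAC-6w after thinning, and at 4.45 for TAC-2w with a mitochondrial share under 5%. The cause was not tested.

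Genes past the fold against sham numbered, in the same order, 133, 126 and 268 higher and 209, 231 and 365 lower at a fold of 1.5. With a floor of 50 CPM they were 178, 166 and 370 higher and 296, 265 and 608 lower, and with 200 CPM 19, 14 and 60 higher and 26, 36 and 72 lower. At TAC-4w 68 were lower without likely doublets and 49 without members that carried foreign transcripts.

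Between CD4 and CD8 T cells, testing all genes with a count gave 51 higher and 81 lower of 14940, DESeq2 gave 15 and 19, and a mitochondrial share under 5% gave 6 and 7. With no replicate block there were 4 and 5 of 3469 tested, fewer genes than with the block, so the change cannot be put down to the block alone. Leaving out each library in turn gave 4 to 32 higher and 12 to 43 lower. Tnfrsf4, Cd40lg, Maf and Gzma passed in 12 of 12 alternatives, and Hba-a1 in 5 of 12. Calls were also lost for Ass1 in 3 of 12 alternatives, Izumo1r in 3 of 9, Dntt in 2 of 10, Arpp21 in 2 of 8 and Klra1 in 2 of 5. They were lost for Endou in 1 of 7, Eomes in 1 of 6, Gzmm in 1 of 10 and Klre1 in 1 of 11, beside the other globins and Meg3. An alternative that filtered a gene out or gave it no adjusted p was not counted for that gene. Foxp3 positive and negative cells could not be compared, as each library had fewer than 5 positive cells, so its alternatives were not run. Section ratios moved by less than their counting intervals in 18 of 18 alternatives, although that of Cd4 at TAC-6w no longer excluded 1 without mitochondrial and rRNA-like features. Depth limits TAC-6w most, where the exact upper limit of a gene without a UMI is 99.0 CPM.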
